A study of Mus musculus with 24 samples.

Results

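The cytosolic ribosome translates nearly all nuclear-encoded proteins, and its protein components are encoded by the Rps genes of the small subunit and the Rpl and Rplp genes of the large subunit. Their mRNAs are among the most abundant of a cell, and many begin with a pyrimidine tract, the TOP motif, through which mTORC1 and Larp1 control their translation. Reverse-transcribed copies of these mRNAs have been inserted all over mammalian genomes, and most of these intronless copies are annotated as processed pseudogenes. All genes with a symbol of the form Rpl, Rps or Rplp followed by a digit were taken from the gene-level table, with the copies carrying -ps in their name included and the Rps6k kinases left out. This gave 111 of the 15323 genes, of which 74 were parent genes, 28 were copies, 8 were paralogues with a coding sequence or symbol derived from another member, and 1 was Rps19bp1, a protein that binds Rps19. The paralogues were Rpl3l, Rpl7l1, Rpl22l1, Rpl36al, Rpl37rt, Rps4l, Rps27l and Rps27rt. The annotation (GENCODE vM21, GRCm38) holds 383 symbols of this form, 291 of them -ps copies, and the others were not analysed here.

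Polyadenylated RNA of liver (median lobe) and heart (left ventricle) was sequenced from 12 males, 10 weeks old, per genotype, pooled 4 animals at a time, so that each of the 8 groups had 3 libraries and the 24 libraries were made of pools and not of single mice. The 4 genotypes combine a nuclear genome with a mitochondrial genome (mtDNA). NZB:C57 mice carried the NZB nuclear genome with C57 mtDNA and NZB:NZB mice were the NZB parental strain, with NZB nuclear genome and NZB mtDNA. BL/6J:NZB mice carried the C57BL/6 nuclear genome, written BL/6J in the titles, with NZB mtDNA and BL/6J:C57 mice were the C57BL/6 parental strain, with C57BL/6 nuclear genome and C57 mtDNA. The NZB:C57 and BL/6J:NZB lines were conplastic, that is, made by 10 generations of backcrossing the mtDNA of 1 strain into the other, and each is a single line. Pools with the C57BL/6 nuclear genome are titled mix and those with the NZB nuclear genome rep, so handling and nuclear genome cannot be told apart if these sets were handled differently. The sources used here do not give whether liver and heart pools of a genotype came from the same animals.

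The heart libraries held 3714278 to 12949956 reads and the liver libraries 7294525 to 34974268. Values are normalised read counts as the authors scaled them, and each equals a whole number of reads times a constant of its library. Myh6, the cardiac myosin heavy chain gene, read 7707 to 91692 in hearts and 0 to 46.6 in livers, and Alb, the hepatocyte albumin gene, read 7.93 to 130.5 in hearts and 73553 to 155398 in livers. In NZB:C57 hearts the 20 most abundant genes took 33.4 to 34.1% of the reads, where hearts of the other genotypes had 11.5 to 14.5%. Parent genes took 0.904 to 2.003% of the reads of a heart library and 0.902 to 1.34% of a liver library, and the 28 copies 0.143 to 0.263% in hearts and 0.128 to 0.225% in livers. In bulk tissue, fewer cells of a type and less RNA per cell cannot be told apart.

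The copies resemble their parents so closely that a short read can match both. Between each parent transcript and every other gene of the table, shared 31-base words were counted. Of the 74 parents, 47 shared at least 10% of their words with another gene of the table that was neither a parent nor a paralogue, and 27 did not. The sharing genes numbered 68, of which 28 were members and 40 carry other symbols. The 60-base stretches below come from the coding sequence of 6 such pairs (GENCODE vM21 transcripts), chosen because the results below turn on them, and capitals mark the bases at which parent and copy differ. Positions are counted from 1 at the A of the start codon.

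Rps2, coding bases 42 to 101: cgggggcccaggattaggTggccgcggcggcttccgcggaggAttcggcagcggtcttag
Rps2-ps13, the same stretch: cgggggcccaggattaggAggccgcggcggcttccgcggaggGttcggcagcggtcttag
Rpl26, coding bases 147 to 206: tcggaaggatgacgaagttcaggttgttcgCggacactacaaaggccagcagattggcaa
Gm15772, the same stretch: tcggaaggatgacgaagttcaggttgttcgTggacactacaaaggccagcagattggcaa
Rpl35a, coding bases 126 to 185: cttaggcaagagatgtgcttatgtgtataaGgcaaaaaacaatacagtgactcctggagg
Gm10243, the same stretch: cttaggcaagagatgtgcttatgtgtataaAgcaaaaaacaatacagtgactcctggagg
Rps18, coding bases 324 to 383: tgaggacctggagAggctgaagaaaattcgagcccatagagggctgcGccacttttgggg
Gm10260, the same stretch: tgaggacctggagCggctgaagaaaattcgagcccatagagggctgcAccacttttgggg
Rplp0, coding bases 388 to 447: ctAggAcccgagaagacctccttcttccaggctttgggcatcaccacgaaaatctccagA
Gm8730, the same stretch: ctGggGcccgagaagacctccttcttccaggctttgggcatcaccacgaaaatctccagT
Rps6 and Rps6-ps4, coding bases 1 to 60, identical in both: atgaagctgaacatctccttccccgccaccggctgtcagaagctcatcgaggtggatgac

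Over the whole coding sequence, Rps2 differed from Rps2-ps13 at 7 of 879 bases and Rpl26 from Gm15772 at 2 of 435. Rpl35a differed from Gm10243 at 1 of 330, Rps18 from Gm10260 at 4 of 456 and Rplp0 from Gm8730 at 12 of 951. Rps6 and Rps6-ps4 were identical over all 747 coding bases. In 18 of the 47 families the coding sequence of the parent and of its closest copy in the table was identical. These are sequences of the reference genome, which is built from C57BL/6, and no NZB sequence was used.

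Parent genes differed widely in their level per kilobase of transcript. The length was that of 1 annotated transcript per gene, so the ranking also depends on which transcript was taken. That transcript had 1856 bases for 480 coding bases in Rpl21 and 2045 for 891 in Rpl5, against 499 for 342 in Rplp1. The median parent read 178 normalised counts per kilobase in hearts (range 5.55 to 635) and 259.8 in livers (7.60 to 781). Rplp1, an acidic stalk protein of the large subunit that helps recruit elongation factors, stood at the top of both tissues, at 635 per kilobase in hearts and 781 in livers. Other parents with high levels were, in hearts, Rps29 (449), Rpl23a (435) and Rps15 (419), and, in livers, Rpl41 (502), Rpl4 (467) and Rpl32 (458), all per kilobase. The lowest level per kilobase belonged to parents whose word-sharing genes together held most of the family's reads. Rpl12, a stalk-base protein, read 5.55 per kilobase in hearts and 8.30 in livers, Rpl31 read 6.04 in hearts and 7.60 in livers, and Rpl5, which carries the 5S rRNA into the large subunit, read 7.06 in hearts and 9.64 in livers. Rpl21 read 11.6 per kilobase in hearts and 15.4 in livers, Rps6 read 16.1 in hearts, and Rpl27 read 22.1 in livers. The 6 most abundant copies in livers were Rps6-ps4, Rpl10-ps3, Rps2-ps13, Rpl10a-ps1, Rpl31-ps8 and Rpl28-ps1, at 399, 348, 255, 223, 208 and 194 normalised counts on average over the 12 livers.

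The coefficient of variation over the 12 libraries of a tissue was smallest in hearts for Rpl4 (6.60%), Rps3 (7.36%) and Rpl6 (7.66%) and in livers for Rps3a1 (5.30%), Rpl4 (5.50%) and Rpl7 (6.47%). It was largest in hearts for Rpl26 (107%), Rps6 (104%) and Rpl21 (103%) and in livers for Rps6 (106%), Rpl26 (106%) and Rps2 (104%). Within groups, the median coefficient of variation in hearts was 8.10% for the 27 parents that shared at least 50% of their words with another gene of the table, 10.3% for the 21 that shared 10 to 50% and 6.63% for the 26 that shared under 10%. The median normalised counts of these parents in hearts were 124, 68.0 and 204 in the same order of sharing. In livers the coefficients of variation were 12.8% for the 27 parents, 12.3% for the 21 and 8.25% for the 26, at median normalised counts of 172, 122 and 249. Parents that shared under 10% thus had both the smallest coefficient of variation and the highest level.

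Reads of several families lay on a copy in mice with the NZB nuclear genome and on the parent in mice with the C57BL/6 nuclear genome, in both tissues and with either mtDNA. Rps2, a core protein of the small subunit near the mRNA entry site (chr17:24718116-24721929, GRCm38), had few reads in every NZB-nuclear library, while its intronless copy Rps2-ps13 (chrX:52898588-52899469) was abundant there and close to 0 in every C57BL/6-nuclear library. Rps2 read 2.55, 1.82 and 2.65 normalised counts in NZB:C57 hearts and 2.86, 2.78 and 2.87 in NZB:NZB hearts, against 366, 395 and 420.3 in BL/6J:NZB and 394, 385 and 362 in BL/6J:C57 hearts. Rps2-ps13 read 359.6, 371 and 393 in NZB:C57 hearts and 341, 322 and 306 in NZB:NZB hearts, against 0, 0 and 0.501 in BL/6J:NZB and 0.182, 0 and 0 in BL/6J:C57 hearts. The groups were far apart in every library, and livers showed the same picture. In livers Rps2 read 3.998, 3.88 and 2.96 in NZB:C57 and 3.20, 2.36 and 2.76 in NZB:NZB mice, against 455, 454 and 511 in BL/6J:NZB and 517, 492 and 429 in BL/6J:C57 mice. In livers Rps2-ps13 read 659, 647 and 555 in NZB:C57 and 389, 412 and 392 in NZB:NZB mice, against 0.373, 0 and 0 in BL/6J:NZB and 0, 0.112 and 0 in BL/6J:C57 mice. The fitted log2(value + 1) difference of Rps2, NZB over C57BL/6 nuclear genome, was -6.68 ± 0.10 (SE, adjusted p = 4.4e-18) in hearts and -6.98 ± 0.12 (SE, adjusted p = 2.7e-14) in livers with NZB mtDNA, and -6.85 ± 0.10 (SE, adjusted p = 2.9e-18) in hearts and -6.71 ± 0.12 (SE, adjusted p = 4.2e-14) in livers with C57 mtDNA. Added up, Rps2 and its copies Rps2-ps10 and Rps2-ps13 gave 311 to 676 in the 12 NZB-nuclear libraries and 362 to 517 in the 12 C57BL/6-nuclear libraries, ranges that overlapped.

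**Figure D1:**
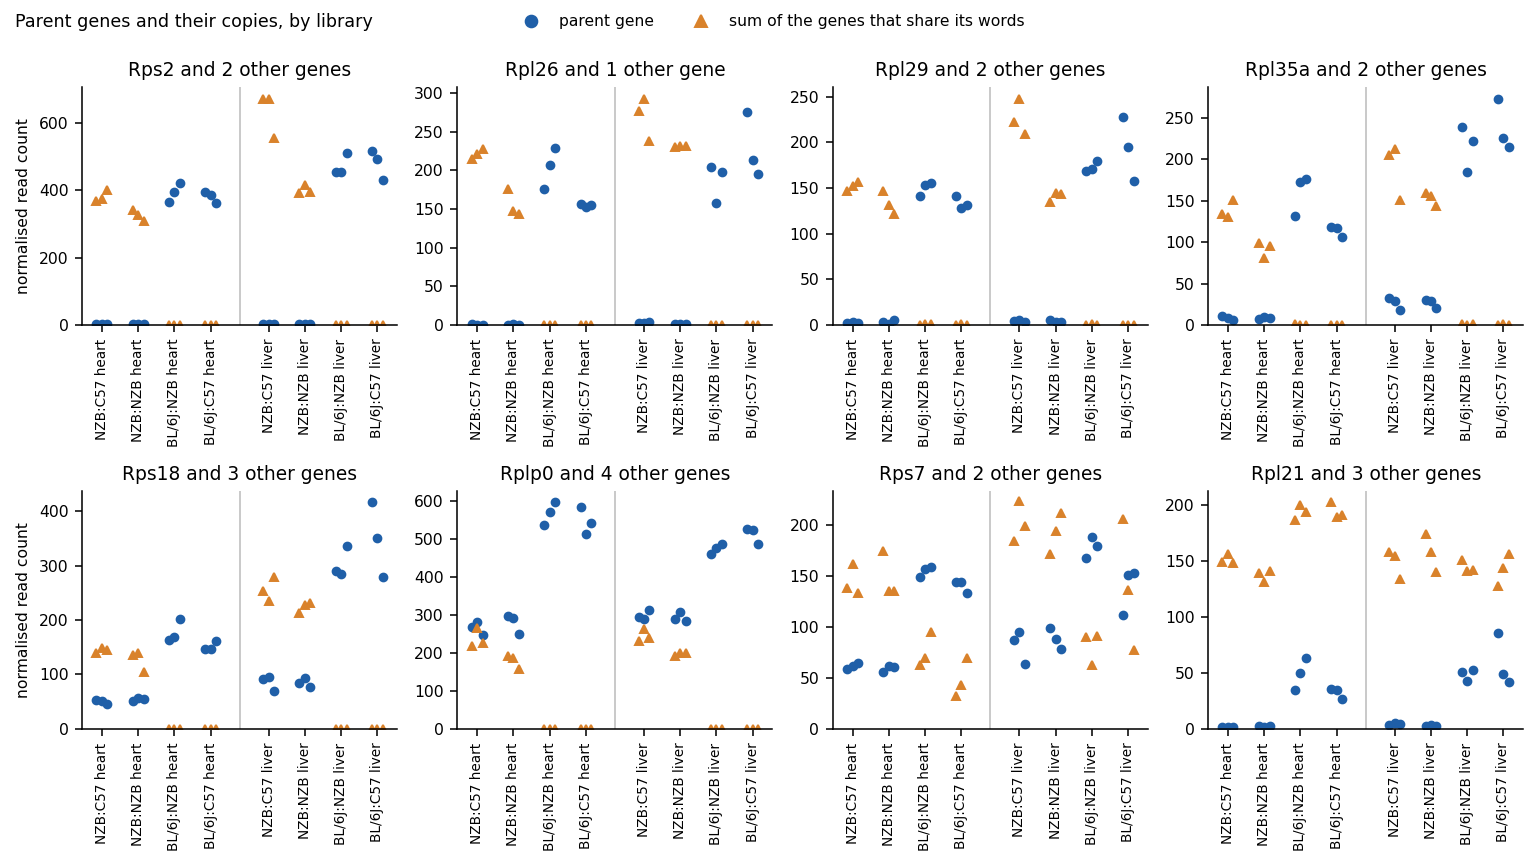
Normalised read counts of 8 parent genes (circles) and the sum of the genes that share words with each (triangles), by library, in hearts and livers. Each point is a library of 4 pooled males; groups run from NZB:C57 and NZB:NZB to BL/6J:NZB and BL/6J:C57, and for Rps2, Rpl26, Rpl29 and Rpl35a the parent and the sum change places between the NZB and the C57BL/6 nuclear genome.

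Other families divided in the same way. Rpl26, a large-subunit protein at the polypeptide exit tunnel, read 0 to 3.29 (median 0.904) in the 12 NZB-nuclear libraries, against 153 to 275 (median 196) in the 12 C57BL/6-nuclear ones. Its copy Gm15772 (chr5:3236431-3236868) read 143 to 293 (median 229) in NZB-nuclear and 0 to 0.440 (median 0.163) in C57BL/6-nuclear libraries. The values of neither gene overlapped between the nuclear genomes. Rpl29, a basic protein of the large subunit, read 1.22 to 5.82 (median 3.24) in NZB-nuclear and 128 to 228 (median 157) in C57BL/6-nuclear libraries, and Gm13841 read 120.3 to 247 (median 146) in NZB-nuclear and 0 to 1.27 (median 0.200) in C57BL/6-nuclear libraries. Rpl35a, a large-subunit protein mutated in some patients with Diamond-Blackfan anaemia, read 6.62 to 33.1 (median 14.6) in NZB-nuclear and 107 to 273 (median 180.5) in C57BL/6-nuclear libraries. Its copy Gm10243, which differed from it at a single coding base, read 80.4 to 213 (median 147) in NZB-nuclear and 0 to 1.04 (median 0.179) in C57BL/6-nuclear libraries.

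In further families the parent kept part of its reads with the NZB nuclear genome. Rps18, a small-subunit head protein, read 46.6 to 96.1 (median 63.9) in NZB-nuclear and 147 to 416 (median 241) in C57BL/6-nuclear libraries, and Gm10260 read 81.3 to 222 (median 139) in NZB-nuclear and 0 to 0.167 (median 0) in C57BL/6-nuclear libraries. Rplp0, the stalk protein that anchors Rplp1 and Rplp2 on the large subunit, read 248 to 314 (median 289.7) in NZB-nuclear and 459.8 to 596 (median 526) in C57BL/6-nuclear libraries. Its copy Gm8730 read 131 to 217 (median 171) in NZB-nuclear and 0 to 0.370 (median 0) in C57BL/6-nuclear libraries, and the copy Rplp0-ps1 read 2.29 to 6.09 (median 3.66) in NZB-nuclear libraries and was at 0 in all 12 C57BL/6-nuclear ones. Rplp0 is often used as a reference gene for expression, and its own row was lower by 1.02 (log2 scale, adjusted p = 4.7e-08) in NZB:NZB than in BL/6J:NZB hearts and lower by 0.69 (adjusted p = 1.7e-05) in NZB:NZB than in BL/6J:NZB livers. With its copies added, the differences were -0.31 ± 0.08 (SE, adjusted p = 0.0091) in hearts and 0.05 ± 0.08 (SE, adjusted p = 0.66) in livers. Rps7 fell likewise, with 55.4 to 99.2 (median 64.3) in NZB-nuclear and 111 to 188 (median 151) in C57BL/6-nuclear libraries, but its copy Gm6472 carried reads under both nuclear genomes, 133 to 223 (median 173) in NZB-nuclear and 31.8 to 186 (median 72.7) in C57BL/6-nuclear libraries. Rpl21 read 1.36 to 4.85 (median 2.64) in NZB-nuclear and 26.4 to 85.5 (median 45.6) in C57BL/6-nuclear libraries, while BC004004, which shares words with it and held most of the family's reads throughout, read 95.0 to 122 (median 108) in NZB-nuclear and 116 to 175 (median 138) in C57BL/6-nuclear ones.

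Over all 47 families, the share of the summed normalised counts that lay on the parent was lower in all 12 NZB-nuclear libraries than in all 12 C57BL/6-nuclear libraries in 9 families and higher in 0. The median share in NZB-nuclear and in C57BL/6-nuclear libraries was 0.415% and 99.9% for Rpl26, and 0.672% and 99.98% for Rps2. It was 2.03% and 99.8% for Rpl29, 10.9% and 99.9% for Rpl35a, and 1.67% and 22.1% for Rpl21. The drop was to 27.4% in NZB-nuclear libraries, against 100% in C57BL/6-nuclear ones, for Rps18 and to 57.6%, against 99.97%, for Rplp0. Rps4x, an X-linked small-subunit protein (93.1% and 100%), and Rplp1 (97.9% and 99.9%) differed by little. In all 9 of these families parent and closest copy differed in sequence, at 1 to 12 coding bases (median 5, identity 98.5 to 99.7%). Counting single genes, 8 of 74 parents were lower in every NZB-nuclear library than in every C57BL/6-nuclear one (Rpl21, Rpl26, Rpl29, Rpl35a, Rplp0, Rps2, Rps7 and Rps18) and 0 were higher, whereas 0.731% of all 15323 genes were lower and 1.25% higher in this way (1.98% in all). Of the 28 copies, 2 were higher without overlap (Rps2-ps13 and Rplp0-ps1) and 0 lower. These 8 parents were named after their values had been seen. The origin of the reads on a copy in NZB-nuclear mice was not tested.

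**Figure D2:**
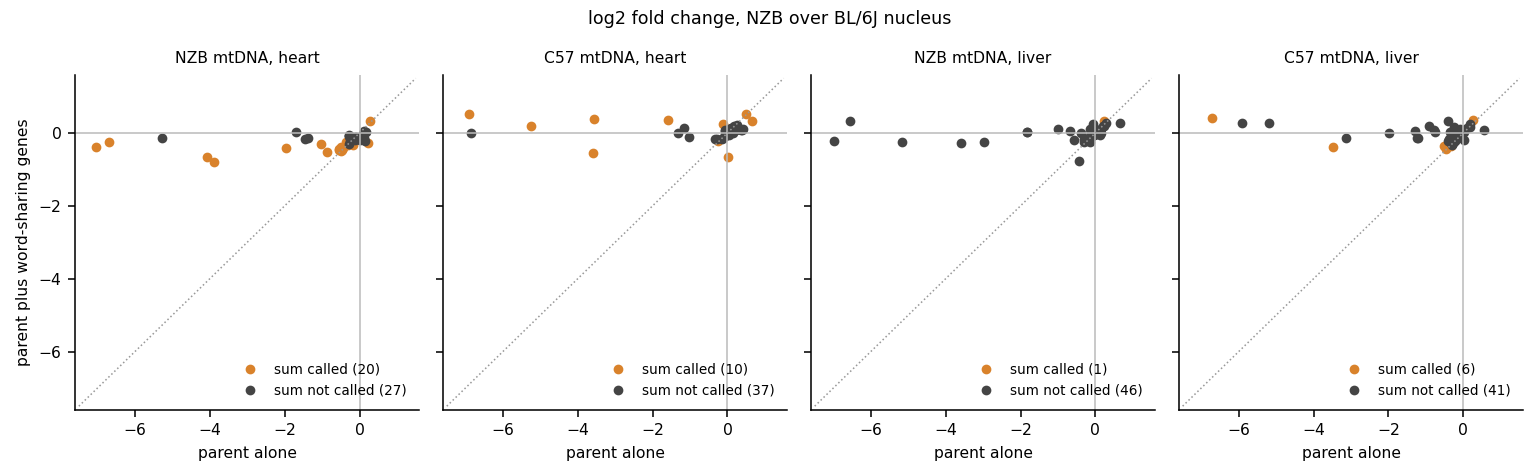
Log2 difference, NZB over C57BL/6 nuclear genome, of the 47 parent genes on their own (horizontal axis) and after the counts of their word-sharing genes were added (vertical axis), for each tissue and mtDNA, with summed values that were called in orange. Rps2 and Rpl26 lie far below 0 on their own, and in the sums Rps2 runs from -0.26 to 0.41 and Rpl26 from -0.38 to 0.51.

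In a second set of 11 families the word-sharing genes together held more than the parent in all 24 libraries, whatever the nuclear genome. These were Rpl5, Rpl10a, Rpl12, Rpl15, Rpl21, Rpl27, Rpl27a, Rpl28, Rpl31, Rps6 and Rps23, and in 9 of them the coding sequence of parent and closest copy was identical. Rps6, the small-subunit protein phosphorylated by S6 kinase downstream of mTORC1, is an example. Its parent gene read 9.51, 25.6 and 0.221 in NZB:C57, 9.69, 15.3 and 0.845 in NZB:NZB, 1.19, 1.27 and 46.4 in BL/6J:NZB and 6.65, 33.2 and 19.8 in BL/6J:C57 hearts, and up to 231 in a BL/6J:C57 liver. Rps6-ps4 (chr2:75191073-75191822) read 287, 244 and 308 in NZB:C57, 311, 255 and 240.0 in NZB:NZB, 281, 310.0 and 329 in BL/6J:NZB and 293, 255 and 262 in BL/6J:C57 hearts. The parent thus varied more between pools of the same genotype than the copy did. Rpl31 read 5.53 to 9.06 (median 7.40) in NZB-nuclear and 4.17 to 9.95 (median 7.02) in C57BL/6-nuclear libraries, against 159.6 to 218 (median 187) in NZB-nuclear and 167 to 275 (median 206) in C57BL/6-nuclear ones for Rpl31-ps8. Rpl5 read 9.27 to 19.8 (median 15.8) in NZB-nuclear and 10.3 to 28.3 (median 18.03) in C57BL/6-nuclear libraries, and its copy Gm15500 read 223 to 359 (median 313) in NZB-nuclear and 267 to 366 (median 329.8) in C57BL/6-nuclear ones. The sources used here do not give how reads that match a parent and its copy equally well were assigned. A value for a parent, or for a copy, of these families is uncertain for that reason. The same holds for other families with an identical coding sequence, such as Rpl10 and Rpl10-ps3.

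**Figure D3:**
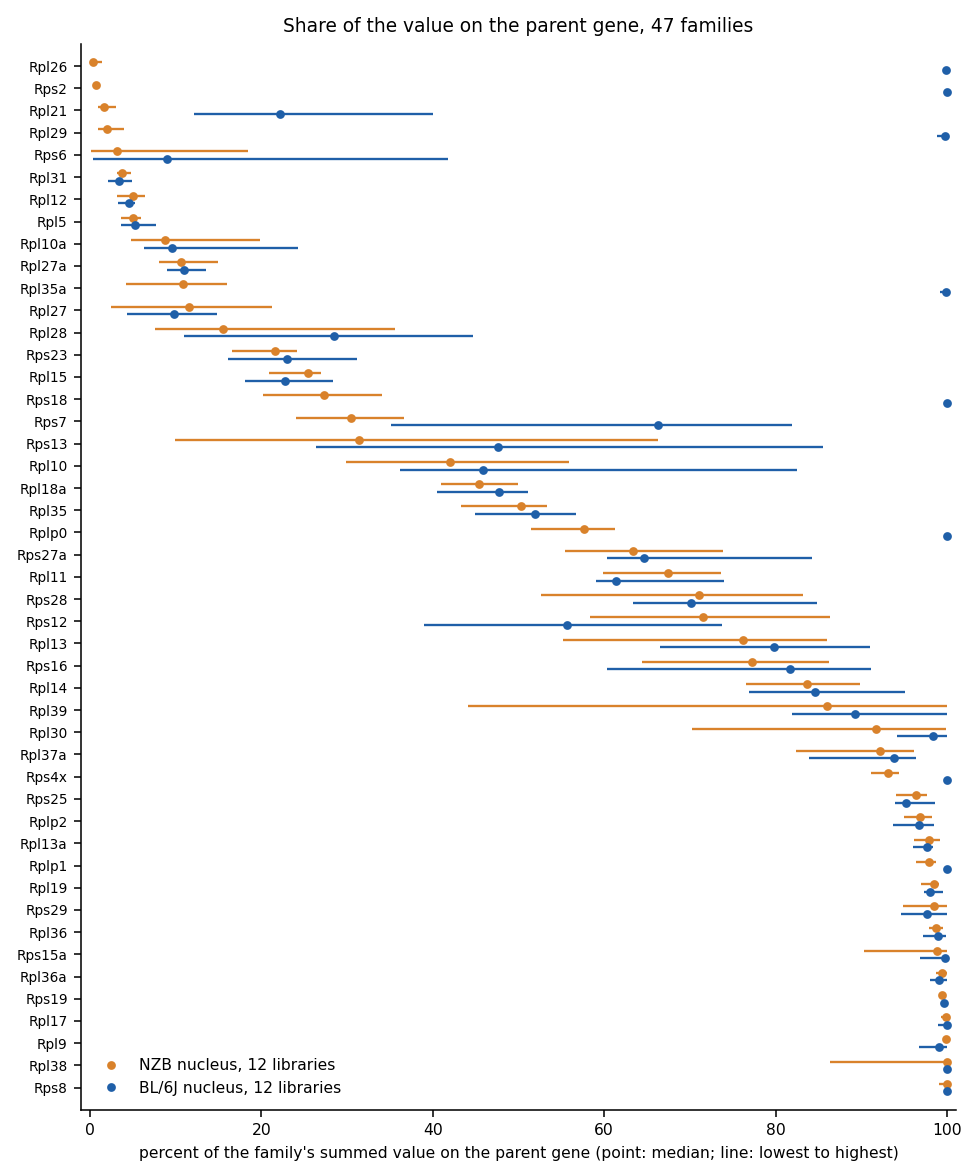
Percent of a family's summed normalised counts that lay on the parent gene, for the 12 NZB-nuclear (orange) and the 12 C57BL/6-nuclear libraries (blue) of each of 47 families, with the median as a point and a line from the lowest to the highest library. The families with a lower share in every NZB-nuclear library, such as Rpl26 and Rps2, stand apart from those whose parent held under 50% in all 24 libraries, such as Rpl31 and Rps6.

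The nuclear genomes were compared at fixed mtDNA with limma across all genes tested (13159 in livers, 13803 in hearts). With NZB mtDNA, 10 of 74 parents were lower and 2 higher in NZB:NZB than in BL/6J:NZB livers, and 24.9% of all genes tested were called in either direction (11.9% lower, 12.9% higher). In hearts 34 parents were lower and 1 higher, against 13.6% lower and 15.5% higher among all genes (29.1% in either direction), and the median parent difference was -0.24 on the log2 scale, against 0.02 for all genes. With C57 mtDNA, 13 parents were lower and 1 higher in NZB:C57 than in BL/6J:C57 livers (14.8% and 13.1% of all genes, 27.9% in either direction), and 11 were lower and 6 higher in hearts (13.1% and 22.1%, 35.2% in either direction). Rpl26, Rps2, Rpl29, Rpl35a, Rpl21, Rps18, Rps7 and Rplp0 were among those lower in all 4 comparisons. After word-sharing genes were added to their parents, an alternative chosen after the data had been seen, 0 parents were lower and 2 higher in NZB:NZB than in BL/6J:NZB livers, 31 lower and 1 higher in hearts, 6 lower and 3 higher in NZB:C57 than in BL/6J:C57 livers, and 4 lower and 9 higher in hearts. With library totals in place of the authors' scaling, 8 parents were lower and 7 higher in NZB:NZB than in BL/6J:NZB livers, where the parent median was 0.10 and that of all genes 0.09, and 65 parents were lower and 0 higher in NZB:C57 than in BL/6J:C57 hearts, where the median of all genes then lay at -0.53. Without BL/6J:C57 liver replicate 3, 32 parents were called in NZB:C57 against BL/6J:C57 livers, and without BL/6J:C57 liver replicate 2 or NZB:C57 liver replicate 2 there were 9. Without BL/6J:NZB heart replicate 3 or NZB:NZB heart replicate 3, 21 were called in NZB:NZB against BL/6J:NZB hearts.

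Cell type markers differed between the nuclear genomes too, though not always in the same direction with both mtDNA types. In NZB:NZB against BL/6J:NZB hearts 7 of 8 fibroblast and 5 of 6 macrophage markers tested were higher and 6 of 10 cardiomyocyte markers lower. In NZB:C57 against BL/6J:C57 hearts 8 of 8 endothelial, 8 of 8 fibroblast, 6 of 6 macrophage and 9 of 10 cardiomyocyte markers were higher. Fibroblast markers summed to 2581 to 2857 normalised counts in NZB:C57 and 2025 to 2335 in NZB:NZB hearts, against 853 to 897 in BL/6J:NZB and 848 to 883 in BL/6J:C57 hearts. Cardiomyocyte markers summed to 255392 to 264238 in NZB:C57 and 28814 to 30681 in NZB:NZB hearts, against 40456 to 45888 in BL/6J:NZB and 42315 to 45221 in BL/6J:C57 hearts. They were thus higher with the NZB nuclear genome on C57 mtDNA and lower on NZB mtDNA. Endothelial markers summed to 1603 to 1836 in NZB:C57 and 946 to 1066 in BL/6J:C57 hearts. They summed to 1053 to 1172 in NZB:NZB and 1032 to 1091 in BL/6J:NZB hearts, which overlapped. In livers, hepatocyte markers summed to 205936 to 222510 in NZB:C57 and 175264 to 180246 in NZB:NZB mice. They summed to 119791 to 126604 in BL/6J:NZB and 125968 to 131408 in BL/6J:C57 livers. Endothelial markers summed to 245 to 282 in NZB:NZB and 172 to 223 in BL/6J:NZB livers. They summed to 123 to 145 in NZB:C57 and 106 to 179 in BL/6J:C57 livers, which overlapped. Cardiomyocyte markers in livers were higher for 9 of 9 tested in NZB:NZB against BL/6J:NZB and 8 of 9 in NZB:C57 against BL/6J:C57. Their sums were 46.5 to 158 in NZB:NZB, 1.10 to 153 in NZB:C57, 1.12 to 1.94 in BL/6J:NZB and 0.557 to 1.41 in BL/6J:C57 livers. The lowest NZB:C57 liver thus lay within the BL/6J:C57 range. Of the fibroblast markers, 6 of 8 were higher in NZB:NZB against BL/6J:NZB livers. The part of these markers in the counts of parents was not tested.

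A few other members differed in the same direction more than once. Rpl3, which lies at the peptidyl transferase centre, read 445, 446 and 425 in NZB:C57 livers, against 327, 340.0 and 343 in BL/6J:C57 livers, and 423, 456 and 435 in NZB:NZB livers, against 338, 346 and 366 in BL/6J:NZB livers. All 6 NZB-nuclear livers lay above all 6 C57BL/6-nuclear ones, with differences of 0.38 ± 0.07 (SE, adjusted p = 0.0018) for C57 mtDNA and 0.32 ± 0.07 (SE, adjusted p = 0.0057) for NZB mtDNA. Rplp1 was higher in NZB-nuclear hearts, at 339, 359 and 357 in NZB:C57 and 363, 391 and 341 in NZB:NZB, against 269, 303 and 323 in BL/6J:NZB and 261, 256 and 238 in BL/6J:C57 hearts. The difference was 0.29 ± 0.08 (SE, adjusted p = 0.0081) with NZB mtDNA, and 0.48 ± 0.08 (SE, adjusted p = 6.8e-05) with C57 mtDNA, which turned to -0.11 with library totals. Rpl41, the smallest protein of the large subunit, behaved alike in NZB:C57 against BL/6J:C57 hearts (224 ± 35.5 against 157 ± 11.4, SD, n = 3 each, a difference of 0.50 ± 0.11 SE, adjusted p = 0.0021) and turned to -0.085 with library totals. Rps4l, an intronless relative of Rps4x, was lower with the NZB nuclear genome in all 4 comparisons, by 0.97 and 0.80 on the log2 scale in hearts and livers with NZB mtDNA and by 0.94 and 0.85 with C57 mtDNA (adjusted p = 5.9e-05, 0.013, 4.2e-05 and 0.0085). In livers with NZB mtDNA that call was lost without NZB:NZB liver replicate 1 and without BL/6J:NZB liver replicate 2.

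Further members were called in some of the nuclear comparisons. In NZB:NZB against BL/6J:NZB hearts, Rpl30 (-0.55 ± 0.10 SE, adjusted p = 3.4e-04), Rpl36 (-0.48 ± 0.09 SE, adjusted p = 3.7e-04) and Rps25 (-0.44 ± 0.08 SE, adjusted p = 8.3e-04) were among the lower parents outside the families divided in every library. These are the same BL/6J:NZB hearts in which parents were high relative to BL/6J:C57 hearts, described next. The share of its family's counts on Rpl30 was 70.3 to 99.8% (median 91.7%) in NZB-nuclear libraries. In C57BL/6-nuclear libraries it was 94.2 to 100% (median 98.4%), which overlapped. Rpl22l1, the paralogue of Rpl22, was higher in NZB:C57 than in BL/6J:C57 hearts (26.1, 28.7 and 25.8 against 15.5, 15.7 and 15.5, 0.75 ± 0.11 SE, adjusted p = 4.8e-05), and its parent Rpl22 was lower in NZB:C57 than in BL/6J:C57 livers (117, 107 and 113 against 143, 131 and 128, -0.25 ± 0.08 SE, adjusted p = 0.04), a difference that edgeR did not call (adjusted p = 0.076). Rps27l, a p53-responsive paralogue of Rps27, was lower in NZB:C57 than in BL/6J:C57 livers (139.5, 129 and 136 against 221, 188 and 164, -0.49 ± 0.13 SE, adjusted p = 0.011). Of the copies tested with NZB mtDNA, 3 of 23 were higher and 0 lower in livers, where 12.9% of all genes were higher and 11.9% lower, and 5 of 20 were higher and 2 lower in hearts, where 15.5% of all genes were higher and 13.6% lower. With C57 mtDNA, 6 of 23 were higher and 1 lower in livers (13.1% and 14.8% of all genes) and 4 of 20 higher and 1 lower in hearts (22.1% and 13.1%). Rpl39-ps read 112, 137 and 39.3 in NZB:C57 livers, against 0, 3.85 and 25.2 in BL/6J:C57 livers, whereas Rpl39 read 113, 109 and 129 in NZB:C57 and 194, 172 and 114 in BL/6J:C57 livers. Rpl9-ps7 was lower with the NZB nuclear genome in hearts of both mtDNA types (0.424, 0.413 and 0 in NZB:C57, against 3.46, 7.31 and 3.14 in BL/6J:C57 hearts), at levels of a few normalised counts.

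In hearts with the C57BL/6 nuclear genome, most parents had a small positive difference with NZB mtDNA. In BL/6J:NZB against BL/6J:C57 hearts 71 of 74 parents had a positive difference, with a median of 0.25 on the log2 scale against 0.00 for all genes, and 7 parents and 1 copy were called higher and 0 lower, whereas 0.427% of all genes tested were called higher and 0.507% lower. The 7 parents were Rps12, Rpl30, Rps24, Rpl23, Rpl34, Rpl35 and Rpl38. Rps12, a small-subunit protein, read 119.7, 136 and 150.1 in BL/6J:NZB hearts, against 81.7, 104 and 64.5 in BL/6J:C57 hearts, a difference of 0.71 ± 0.16 (SE, adjusted p = 0.047). Its copy Rps12-ps3 read 56.5, 48.6 and 73.6 in BL/6J:NZB and 69.6, 52.0 and 73.9 in BL/6J:C57 hearts, which overlapped. All 31-base words of Rps12-ps3 were also found in Rps12. How reads were divided between parent and copy is therefore uncertain, and with it the size of the Rps12 difference. Rpl34 read 107, 115 and 119 in BL/6J:NZB hearts, against 83.0, 85.5 and 88.3 in BL/6J:C57 hearts (0.40 ± 0.07 SE, adjusted p = 0.021). Rps24, mutated in some Diamond-Blackfan anaemia families, read 263, 328 and 338 in BL/6J:NZB hearts, against 219, 242 and 223 in BL/6J:C57 hearts (0.43 ± 0.09 SE, adjusted p = 0.037). All 3 BL/6J:NZB hearts lay above all 3 BL/6J:C57 hearts for these 3 genes. Rpl30 averaged 174 ± 17.8 in BL/6J:NZB and 126 ± 14.4 in BL/6J:C57 hearts (SD, n = 3 each, limma adjusted p = 0.042). Rpl23 averaged 289 ± 38.4 in BL/6J:NZB and 215 ± 18.1 in BL/6J:C57 hearts (SD, n = 3 each, limma adjusted p = 0.048). Rpl35 averaged 70.3 ± 2.67 in BL/6J:NZB and 53.3 ± 3.11 in BL/6J:C57 hearts (SD, n = 3 each, limma adjusted p = 0.045). Rpl38 averaged 93.5 ± 10.3 in BL/6J:NZB and 71.2 ± 1.13 in BL/6J:C57 hearts (SD, n = 3 each, limma adjusted p = 0.049). The copy Rpl31-ps8 read 194, 223 and 242 in BL/6J:NZB hearts, against 167, 176 and 167 in BL/6J:C57 hearts (0.36 ± 0.08 SE, adjusted p = 0.048). Rps6 itself overlapped, and Rplp2 read 144, 141 and 179.7 in BL/6J:NZB and 151, 138 and 140.04 in BL/6J:C57 hearts.

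These adjusted p-values lay between 0.021 and 0.049, and the count of 7 was not stable. It became 0 without BL/6J:NZB heart replicate 2 or 3 or BL/6J:C57 heart replicate 1 or 3, 16 without BL/6J:NZB heart replicate 1, and 0 when only the 6 libraries compared entered the fit. By edgeR on the whole reads it was 10. The summed parent value was 11740, 12806 and 14198 in BL/6J:NZB hearts and 10985, 11048 and 10885 in BL/6J:C57 hearts, so that all 3 BL/6J:NZB hearts were above, and the spread among them was wider. Hepatocyte markers summed to 23.0, 26.0 and 196 normalised counts in BL/6J:NZB hearts from the lowest to the highest library, against 14.6 to 20.7 in BL/6J:C57 hearts, and erythroid markers to 3298 to 8791 in BL/6J:NZB and 2878 to 4052 in BL/6J:C57 hearts. The part of these in the result was not tested.

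**Figure D4:**
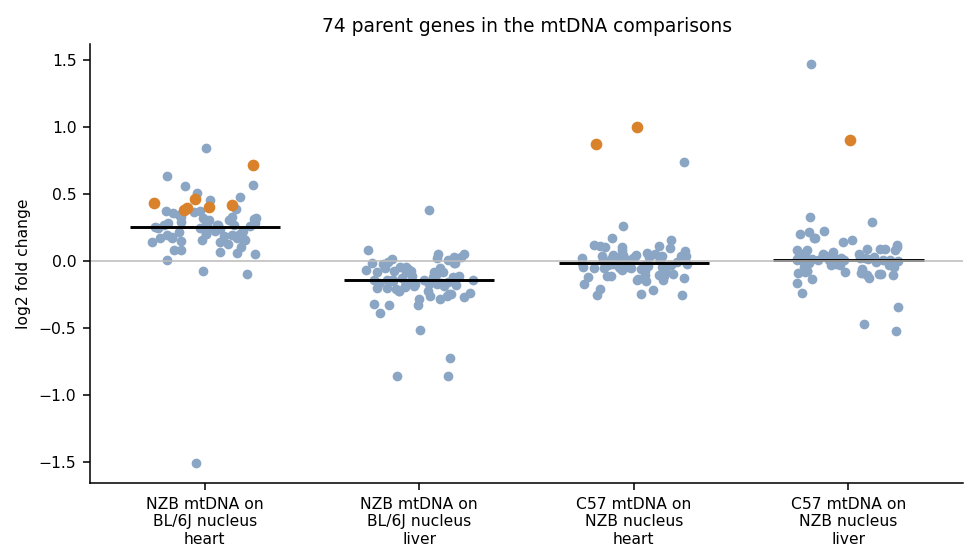
Log2 differences of the 74 parent genes for the 4 mtDNA comparisons, conplastic over parental, one point per gene, with called genes in orange and the median as a black line. In hearts with the C57BL/6 nuclear genome most points lie above 0, around a median of 0.25.

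In livers the same exchange gave no call among members. In BL/6J:NZB against BL/6J:C57 livers limma called 0 of 74 parents, 0 of 23 copies tested and 0 of 7 paralogues tested, where 0.0076% of all genes were called. An unadjusted p under 0.05 was found for 5 parents, 1 copies and 1 paralogues, and edgeR also called 0 of the parents and 0 of the copies. The median parent difference was -0.14, against -0.01 for all genes, and 65 of 74 parents had a negative difference. The summed parent value was 14795, 13877 and 15709 in BL/6J:NZB livers and 18606, 16221 and 14044 in BL/6J:C57 livers, which overlapped. Without BL/6J:C57 liver replicate 3, 3 parents were called lower. Rps27a (-0.39) and Rps7 (0.38) were among the parents with the smallest unadjusted p, with adjusted p of 0.45 and 0.46. The difference between the heart and the liver effect was positive for 72 of 74 parents (median 0.40, against 0.02 for all genes). Limma called 0 parents, against 0.0735% of all genes (0.0534% negative). An unadjusted p under 0.05 was found for 45 parents, and edgeR called 0. The share of all genes with such an unadjusted p was not counted, here or for the liver comparison. Leaving out BL/6J:C57 liver replicate 3 raised the number of parents called by limma to 33.

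Placing C57 mtDNA on the NZB nuclear genome moved few ribosomal protein genes. In NZB:C57 against NZB:NZB livers 1 of 74 parents and 1 of 23 copies were called, both higher, whereas 8.09% of all genes were called (3.65% higher, 4.44% lower). Rpl26 read 2.43, 2.52 and 3.29 in NZB:C57 livers, against 0.731, 1.18 and 1.11 in NZB:NZB livers (0.90 ± 0.15 SE, adjusted p = 0.0019), a residue of a few counts in a family whose reads lay on Gm15772. Rps2-ps13 read 659, 647 and 555 in NZB:C57 livers, against 389, 412 and 392 in NZB:NZB livers (0.64 ± 0.13 SE, adjusted p = 0.0066), with no overlap. With library totals 1 parent was called higher and 5 lower, where the median of all genes was -0.22. Beside this, the NZB:C57 livers had lower values, relative to NZB:NZB livers, of 5 of 8 endothelial and 7 of 8 fibroblast markers, and their part was not tested. In NZB:C57 against NZB:NZB hearts 2 parents, 1 copy and 1 paralogue were called, all higher, where 15.9% of all genes were called (13% higher, 2.89% lower). Rpl28 read 34.6, 52.6 and 30.2 in NZB:C57 hearts, against 17.6, 19.5 and 24.5 in NZB:NZB hearts (0.87 ± 0.21 SE, adjusted p = 0.006). Rps13 read 38.8, 54.6 and 68.4 in NZB:C57 hearts, against 19.2, 48.9 and 18.1 in NZB:NZB hearts (0.998 ± 0.31 SE, adjusted p = 0.033), which overlapped. With their copies added the differences were 0.10 ± 0.09 (SE, adjusted p = 0.57) for Rpl28 and 0.03 ± 0.09 (SE, adjusted p = 0.88) for Rps13. Rps2-ps10 read 9.25, 4.04 and 7.06 in NZB:C57 hearts, against 0.874, 5.57 and 2.20 in NZB:NZB hearts (1.14 ± 0.35 SE, adjusted p = 0.033). Both the Rps13 and the Rps2-ps10 call were lost in 4 of 6 fits that left out 1 library, and over these fits the count of parents ran from 1 to 4. By edgeR the adjusted p was 0.067 for Rps13 and 0.093 for Rps2-ps10. The parent median in hearts was -0.02 with the authors' scaling, but with library totals 69 parents were called lower and 0 higher, at a median of -0.70, where the median of all genes was -0.65.

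Among called members, Rpl3l moved most with C57 mtDNA on the NZB nucleus. This paralogue of Rpl3 is expressed in heart and skeletal muscle, where it replaces Rpl3 in part of the ribosomes. It read 413, 392 and 376 in NZB:C57 hearts, against 141, 129 and 129.8 in NZB:NZB hearts, a difference of 1.55 ± 0.08 (SE, adjusted p = 7.7e-11). With library totals the median of all genes in this comparison lay at -0.65, so the size of that difference depends on the scaling. In BL/6J:NZB hearts Rpl3l read 137, 159 and 171, against 164, 154 and 157 in BL/6J:C57 hearts, which overlapped. Rpl3 read 141, 152 and 129 in NZB:C57 hearts, against 163, 162 and 140.4 in NZB:NZB hearts. NZB:C57 hearts thus stood alone for Rpl3l and not for Rpl3. Beside this, 9 of 10 cardiomyocyte markers were higher in NZB:C57 than in NZB:NZB hearts (median 2.93 on the log2 scale), as were 6 of 8 endothelial and 6 of 8 fibroblast markers, and their part in the Rpl3l difference was not tested. A contrast took the effect of C57 mtDNA on the NZB nucleus minus that of NZB mtDNA on the C57BL/6 nucleus. For Rpl3l in hearts it was 1.58 ± 0.11 (SE, adjusted p = 1.4e-08). The mtDNA was exchanged in opposite directions, so this contrast adds the C57 over NZB mtDNA differences of both nuclear genomes. An equal mtDNA effect on both would be called too, so dependence on the nucleus cannot be read from it. The median parent contrast in hearts was -0.26, against 0.25 for BL/6J:NZB over BL/6J:C57 and -0.02 for NZB:C57 over NZB:NZB. For 8 parents the contrast was called negative and for 0 positive (2.91% and 11.2% of all genes, 14.1% in all), led by Rps12 (-0.86 ± 0.23 SE, adjusted p = 0.015), Rpl21 (-0.81 ± 0.26 SE, adjusted p = 0.045) and Rpl37 (-0.47 ± 0.13 SE, adjusted p = 0.023). In livers it was called for Rpl26 alone among parents (1.18 ± 0.22 SE, adjusted p = 0.0043), with 6.66% of all genes called (3.08% positive, 3.58% negative), and with library totals 1 parent was positive and 5 were negative. The count of 8 parents in hearts became 18 without BL/6J:NZB heart replicate 1 and 13 without NZB:NZB heart replicate 3. It became 2 without BL/6J:C57 heart replicate 1, 3 without BL/6J:NZB heart replicate 2, and 4 without NZB:C57 heart replicate 1, NZB:NZB heart replicate 1, BL/6J:NZB heart replicate 3 or BL/6J:C57 heart replicate 3. With library totals it was 70, where the median of all genes was -0.66. Rpl21 had an adjusted p of 0.12 by edgeR, and its difference turned to 0.037 with word-sharing genes added. For Rps12 the difference is that of the parent row alone, without Rps12-ps3. The Rpl21 and Rpl37 calls were lost in 9 and 5 of the 12 fits that left out 1 library.

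**Figure D5:**
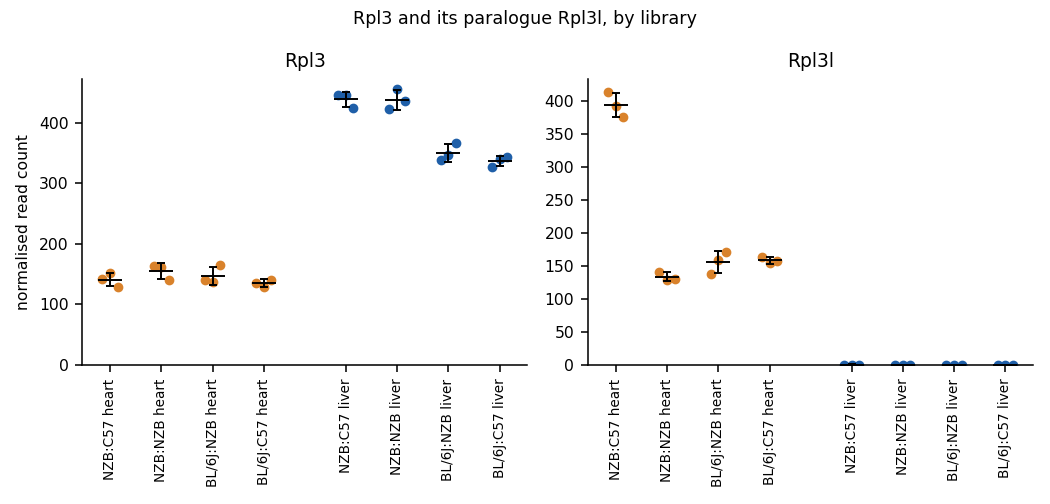
Normalised read counts of Rpl3 and Rpl3l by library, in hearts and livers of the 4 genotypes, with bars for the mean and SD of 3 libraries. Rpl3l is above 370 in the 3 NZB:C57 hearts, 129 to 171 in the other hearts and close to 0 in livers, and Rpl3 is lower in hearts than in livers.

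Heart and liver were compared within each genotype over 14968 genes. With the authors' scaling most called parents were lower in hearts than in livers, a direction that turned round with library totals. For NZB:C57 mice 52 parents were lower and 1 higher (39.9% and 39.6% of all genes, 79.5% in all), against 11 lower and 14 higher with library totals. For NZB:NZB mice 46 were lower and 0 higher (37.4% and 37.8%, 75.1% in all), against 2 lower and 51 higher with library totals. For BL/6J:NZB mice 28 were lower and 6 higher (38.4% and 37.5%, 75.9% in all), against 1 lower and 68 higher with library totals. For BL/6J:C57 mice 57 were lower and 0 higher (39.8% and 37.3%, 77% in all), against 1 lower and 43 higher with library totals. The median parent difference was -0.45, -0.40, -0.22 and -0.58 in these genotypes in that order, against -0.02, -0.01, 0.00 and -0.03 for all genes, and with library totals the median of all genes itself lay at 0.31, 0.73, 0.73 and 0.74. With library totals the parent medians were -0.04, 0.44, 0.67 and 0.38, each under the median of all genes.

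Single members differed more than this common shift. Rpl3 was lower in hearts by 1.63, 1.49, 1.24 and 1.31 on the log2 scale in NZB:C57, NZB:NZB, BL/6J:NZB and BL/6J:C57 mice (each adjusted p at or under 1.6e-12), while Rpl3l read 129 to 413 in hearts and 0 to 0.582 in livers. Rpl10, a large-subunit protein joined late in assembly, was lower in hearts by 0.97 in BL/6J:NZB and 1.22 in BL/6J:C57 mice. Its copy Rpl10-ps3 is identical to it over 642 coding bases. Rpl10 held 36.1 to 82.5% of the family's summed normalised counts in C57BL/6-nuclear libraries, so its own difference is uncertain. Rps29 (0.48) and Rps15a (0.31) were among the 6 parents higher in hearts of BL/6J:NZB mice. Of the paralogues, Rps27l read 30.9 to 51.9 in hearts and 114 to 221 in livers. Rpl36al, the relative of Rpl36a, read 51.4 to 70.8 in hearts and 172 to 225 in livers, whereas Rpl36a read 55.4 to 87.8 in hearts and 102 to 143 in livers. Rpl22l1 was lower in hearts by 0.73, 1.17, 1.16 and 1.54 in the same order of genotypes. Rpl7l1, a relative of Rpl7, was lower in hearts by 1.12, 0.94, 0.85 and 0.90, but turned to 0.041 in BL/6J:NZB and 0.060 in BL/6J:C57 mice with library totals. Rps19bp1 was lower in hearts by 1.08, 1.10, 0.86 and 1.33. Hepatocyte and cardiomyocyte markers separate these tissues, so a difference in cell type makeup and a difference within a cell type cannot be told apart here.

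Other genes of translation were seldom called in the mtDNA comparisons, of which those with NZB mtDNA gave few calls among all genes too. The lists held 18 partners of translation in hearts and livers (such as Eef1a1, Eef2 and Rpsa), 30 genes of ribosome assembly and 13 genes of mTORC1 and TOP control. In BL/6J:NZB against BL/6J:C57 hearts limma called 0 in each list, where 0.935% of all genes were called. In that order of lists, 5, 5 and 7 had an unadjusted p under 0.05 and edgeR called 0, 0 and 0. The medians were 0.06, 0.02 and -0.24 on the log2 scale, against 0.00 for all genes. In BL/6J:NZB against BL/6J:C57 livers limma again called 0 in each, against 0.0076% of all genes. An unadjusted p under 0.05 was found for 3, 2 and 3, and edgeR called 0, 0 and 0. In NZB:C57 against NZB:NZB livers limma called 0 in each, whereas 8.09% of all genes were called. An unadjusted p under 0.05 was found for 0, 2 and 3, and edgeR called 0, 0 and 0. How many of all genes had an unadjusted p under 0.05 was not counted in these comparisons. In NZB:C57 against NZB:NZB hearts Nop56, a box C/D snoRNP protein, was lower (-0.40, adjusted p = 0.0069) and Tsc2, an inhibitor of mTORC1, higher (0.31, adjusted p = 0.0092). Of all genes, 15.9% were called there (13% higher, 2.89% lower). Between the nuclear genomes, 2 partners, 1 assembly gene and 0 TOP regulators were higher and 2, 3 and 1 lower in NZB:NZB against BL/6J:NZB hearts, against 15.5% higher and 13.6% lower among all genes (29.1% in either direction). Pabpc1, the poly(A) binding protein, was higher (0.62, adjusted p = 3.8e-05) and so was Eef1a1, the elongation factor (0.39, adjusted p = 0.0014), whereas Polr1b, a subunit of RNA polymerase I, was lower (-0.57, adjusted p = 0.0045). In NZB:C57 against BL/6J:C57 livers 8 of 30 assembly genes were lower and 0 higher, 4 of 18 partners were lower and 4 higher, and 1 of 13 TOP regulators was lower and 1 higher, where 14.8% of all genes were lower and 13.1% higher. In these livers Polr1b was again lower (-0.55, adjusted p = 0.0045). Eif4ebp1, a translation inhibitor that mTORC1 switches off, was lower in NZB-nuclear livers with NZB mtDNA (-0.64, adjusted p = 5.5e-04) and with C57 mtDNA (-0.51, adjusted p = 0.0027).

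The TOP motif was looked for at annotated starts. In the RefSeq promoter table (GRCm38.p6), a C followed by 4 bases each C or T, read on the transcribed strand within 5 bases of the annotated start, was found for 26 of 54 parent genes that matched by symbol (48.1%) and for 5718 of 27025 genes (21.2%). At the annotated start itself it was found for 12 of 54 (22.2%) and for 813 of 27025 (3.01%). The starts of Rpl35 and Rpl38, both called higher in BL/6J:NZB hearts, are shown because they hold it at the annotated start, with 20 bases before it in lower case and the first 10 transcribed bases in capitals.

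Rpl35, chr2:39005122-39005151, minus strand: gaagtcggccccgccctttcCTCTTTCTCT
Rpl38, chr11:114668560-114668589, plus strand: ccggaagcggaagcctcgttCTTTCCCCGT

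In BL/6J:NZB against BL/6J:C57 hearts the median difference was 0.27 over the 26 parents with such a start within 5 bases and 0.25 over the 28 without. A match describes the letters of an annotated start and not a measured transcription start.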

How the data were processed

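Libraries were made from polyadenylated RNA of pooled tissue. The submitters' processing notes name cutadapt 1.2.1, Bowtie2 2.0.6, RSEM 1.2.3, edgeR and GRCm38, with no role or order, and the sources used here do not give how reads matching several genes were assigned. The deposited signal is a count per gene scaled by the authors. Each value equals a whole number of reads times a constant of its library (100% of values within 0.01 reads), and these reads were recovered. Ensembl ids were matched to GENCODE vM21. Log2(value + 1) was tested with limma 3.58.1 (trend) on genes that reached a value of 1 in 3 or more of the 12 or 24 libraries fitted, with Benjamini-Hochberg adjustment over all genes tested and a threshold of 0.05 (called). These differences understate changes of low genes. Tests and errors measure the spread between pools. Of 28 copies, 23 were tested in livers and 20 in hearts, and of 8 paralogues 7 and 8. Alternatives were edgeR 4.0.16 on the whole reads, library totals, a pseudocount of 0.1, no filter, only the libraries compared, a replicate block, copies or word-sharing genes added to parents, and each replicate left out. For BL/6J:NZB against BL/6J:C57 hearts, data were simulated for 13803 genes with a dispersion of 0.02 for every gene. Of 200 genes with a mean value of at least 5 that were changed 2-fold, 94.0% were recovered, with 5 false calls. Smaller differences and wider spreads between pools were not simulated, so this gives no recovery rate for them. Genes were named by rank of fold change among those called, by level, by variation, or as fixed family members. The members and lists were chosen with earlier results of these data known. Word sharing, identity and start sequences used Python 3.11.15 and Biopython 1.88. Replicate numbers were not used to pair the samples in the main fits, and whether they do pair them is not known. Some members are not reported here.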

Additional observations from a re-analysis of the deposited data

Results flagged for a closer look

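In hearts, the conplastic over parental difference on the NZB nucleus minus that on the C57BL/6 nucleus was called by limma for 10 members. The mtDNA was exchanged in opposite directions, so this contrast adds the C57 over NZB mtDNA differences of both nuclear genomes. An equal mtDNA effect on both would be called too, so the contrast cannot show whether that effect depends on the nucleus. By this contrast 14.1% of all genes were called. On the log2 scale it was 1.58 for Rpl3l, which read 376 to 413 in NZB:C57 hearts and 129 to 171 in the other hearts. It was negative for the other 9, at -0.86 for Rps12, -0.81 for Rpl21, -0.47 for Rpl37, -0.46 for Rpl23 and -0.44 for Rpl31-ps8. It was -0.44 for Rpl38, -0.43 for Rpl34, -0.38 for Rps24 and -0.30 for Rpl32. By edgeR the Rpl21 difference was not called (adjusted p = 0.12), and with word-sharing genes added it turned to 0.037. The Rps12 difference is that of the parent row alone, without Rps12-ps3. In livers the same contrast was 1.18 for Rpl26, a row with 0.731 to 3.29 normalised counts in NZB-nuclear livers. There 6.66% of all genes were called.

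The effect of C57 mtDNA on the NZB nuclear genome differed between hearts and livers for 3 members, where 23.9% of all genes were called. The differences were 1.43 for Rpl3l, -1.15 for Rpl26 and -0.50 for Rps2 (heart minus liver, log2 scale). By edgeR these differences were not called, with adjusted p of 0.3 for Rpl3l, 0.11 for Rpl26 and 0.12 for Rps2, and with word-sharing genes added that of Rpl26 turned to 0.28. Rpl3l was close to 0 in livers, and Rpl26 and Rps2 had at most 3.998 normalised counts in NZB-nuclear libraries. Groups had 3 libraries, so single libraries were not checked as outliers. The causes of these differences were not tested.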

How the results depend on the processing

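Of 1731 values of single genes under other settings, 1482 kept their side of the threshold, and their direction where called. A further 227 kept the direction but missed the threshold, 1 newly passed it, and 21 changed sign with a call in at least 1 of the fits compared. Changes of sign without any call were counted among the 1482. The cause was not tested in any of them, except that adding copies changes what is counted. Depth limits copies and parents with a few reads, and pools of 4 animals show no variation between mice.

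Counts of called parents below are given in the order NZB mtDNA in hearts, C57 mtDNA in livers and hearts, then the nuclear comparisons. For NZB mtDNA in hearts (7) the count was 12 with library totals, 4 with a pseudocount of 0.1, 1 without a filter, 0 with only the libraries compared and 1 with the replicate block. For C57 mtDNA in livers (1) it was 6 with library totals and 2 with copies or word-sharing genes added. For C57 mtDNA in hearts (2) it was 1 with edgeR, 69 with library totals, 1 without a filter, 1 with copies added and 4 with word-sharing genes added. Library totals gave 22 in hearts with NZB mtDNA and 65 with C57 mtDNA for the nuclear genomes, and word-sharing genes added gave 2 in livers with NZB mtDNA and 9 with C57 mtDNA. In heart against liver, library totals gave 69 in BL/6J:NZB and 25 in NZB:C57 mice. For the difference of the conplastic effects, library totals gave 6 in livers and 70 in hearts, added copies and added word-sharing genes 2 in livers, and the replicate block 5 in hearts. For the heart and liver difference of C57 mtDNA, edgeR gave 0, library totals 47 and only the libraries compared 4.

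Called copies for NZB mtDNA in hearts (1) were 0 with a pseudocount of 0.1, without a filter, with only the libraries compared and with the replicate block. For C57 mtDNA they were 0 with a pseudocount of 0.1 and 2 with only the libraries compared in livers, and in hearts 0 with edgeR, a pseudocount of 0.1 and only the libraries compared, and 10 with library totals. They were 7 in NZB:NZB against BL/6J:NZB livers with only the libraries compared, 13 in NZB:C57 against BL/6J:C57 hearts with library totals, and 5 in hearts against livers of NZB:C57 and of NZB:NZB mice with library totals.

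Leaving out each replicate gave 0 to 16 parents for NZB mtDNA in hearts and 0 to 3 in livers, and 1 to 4 for C57 mtDNA in hearts and 1 in livers. It gave 21 to 44 and 9 to 12 for the nuclear genomes with NZB mtDNA in hearts and livers, 13 to 16 and 9 to 32 with C57 mtDNA, 2 to 18 and 1 to 3 for the difference of conplastic effects in hearts and livers, and 1 to 4 (C57 mtDNA) and 0 to 33 (NZB mtDNA) for the heart and liver differences. In heart against liver it gave 45 to 52 in NZB:C57, 43 to 48 in NZB:NZB, 24 to 39 in BL/6J:NZB and 52 to 64 in BL/6J:C57 mice. For copies it gave 0 to 1 for NZB mtDNA in hearts and in livers, 0 to 2 in hearts and 1 to 2 in livers for C57 mtDNA, 5 to 8 and 2 to 3 for the nuclear genomes with NZB mtDNA in hearts and livers, 4 to 6 and 5 to 7 with C57 mtDNA, and 9 to 13, 6 to 8, 6 to 9 and 9 to 12 in heart against liver.

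With word-sharing genes added, differences turned positive in NZB:NZB against BL/6J:NZB livers for Rpl26 (0.32), Rps7 (0.11), Rplp0 (0.054) and Rps18 (0.025), in NZB:C57 against BL/6J:C57 livers for Rps2 (0.41, also with copies), Rpl29 (0.27), Rpl26 (0.26) and Rplp0 (0.086), and in hearts of these for Rpl26 (0.51), Rpl29 (0.20) and Rps2 (0.012, also with copies). They turned for Rps13 in heart against liver of NZB:C57 mice (-0.39, also with copies), Rpl21 in the difference of conplastic effects in hearts (0.037) and Rpl26 in the heart and liver difference of C57 mtDNA (0.28). With library totals they turned for Rplp1 (-0.11) and Rpl41 (-0.085) in NZB:C57 against BL/6J:C57 hearts and for Rpl7l1 in heart against liver of BL/6J:NZB (0.041) and BL/6J:C57 mice (0.060).

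Libraries of the same replicate number deviated together with correlations of -0.07 to 0.21, and no set of pairs was above 0.1 throughout. The samples were therefore not treated as paired, and the replicate block is given only for completeness. Missing this cutoff cannot show that the numbers do not pair the samples. In NZB-nuclear livers same-number correlations were 0.049 to 0.099 and different-number ones -0.091 to -0.0050. Between heart and liver of BL/6J:NZB and of NZB:C57 mice same-number correlations were positive too, and in the other sets their signs were mixed.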
